A study of Mus musculus with 18 samples.

Results

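The genes described here are transcripts of mouse embryonic stem (ES) cells that were well expressed in unmodified cells and low in each of the 3 strongest mutants of Polycomb repressive complex 1 (PRC1). A gene was taken when its mean over the wild-type (WT) libraries was 10 TPM or more and its mean in each of those mutants was at most 33.3% of the WT mean. TPM is the share of a library's transcripts after correction for gene length. Of 56551 genes in the table, 105 met these levels, which is 1.32% of the 7950 genes at 10 TPM or more in WT. After 1 gene of the Y chromosome and 1 Lefty gene were dropped, 103 members remained. Scaling by median ratios would have given 165. The levels that chose them are described below without a test. 

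Total RNA was measured in 6 groups of ES cells with 3 libraries each. The groups were WT, Ring1a-KO (Ring1a-/-), Ring1b-KO (Ring1b-/-), Ring1a/b-dKO (Ring1a/b-/-), Pcgf-4KO (Pcgf1/3/5/6-/-) and a knockout labelled Pcgf1/2/3/4/5/6-/- (Pcgf-6KO), and the last 3 are called the strong mutants here. Strain, clone, culture medium, passage and batch are not in the labels. Separate cultures are not named either, so the p-values measure only the spread between these libraries, which may be technical. Levels do not separate fewer cells of a type from less RNA per cell.

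PRC1 is a chromatin complex that attaches ubiquitin to a core histone. Ring1a and Ring1b are its alternative catalytic subunits, and each complex also carries a Pcgf protein that sets which variant it is. In ES cells PRC1 is known mainly for keeping developmental regulators silent. The genes described here were lower, not higher, in the groups labelled as the strongest knockouts.

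By class, 63 members were protein-coding, 5 were long non-coding RNAs, 7 were pseudogenes, 11 were small RNAs, 16 were assembled identifiers with no annotation and 1 had no annotation. Protein-coding genes made up 61.2% of the members and 93.4% of all genes at 10 TPM or more in WT. In 88 members every WT library lay above all 9 strong-mutant libraries, among them all 63 protein-coding genes. The rule's limit on the means favours such a gap, and its share among all genes was not counted. At the other end, 14 members (10 small RNAs and 4 pseudogenes) were at 1 TPM or more in a single WT library. The pseudogene Rpl39-ps, for instance, had 0, 0 and 90.6 TPM in WT and 22.8, 0 and 0 TPM in Pcgf-6KO. The 11 small RNAs were no longer than 205 bases, and 9 of them shared 50% or more of their 31-base pieces with other genes, against 0 of the 63 protein-coding members. Results are therefore given mainly for the protein-coding members, whose roles were assigned after the members were known.

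Gene-level values of the targeted genes were lower in most of the matching groups and not in all. Rnf2, which encodes Ring1b, was at 65.9 to 76.4 TPM in WT, 47.4 to 53 TPM in Ring1b-KO and 19.4 to 24.7 TPM in Ring1a/b-dKO. Ring1, which encodes Ring1a, was at 7.1 to 7.42 TPM in WT, 2.86 to 5.46 TPM in Ring1a-KO and 2.74 to 9.4 TPM in Ring1a/b-dKO, so the WT and Ring1a/b-dKO libraries overlapped. In Ring1a-KO Rnf2 was at 92.6 to 96.1 TPM, and in Ring1b-KO Ring1 was at 8.55 to 11.9 TPM. Both lay above WT, and their part in the members' values was not tested. Pcgf6 was at 52.8 to 53.3 TPM in WT, 0 to 0.1 TPM in Pcgf-4KO and 9.73 to 11.2 TPM in Pcgf-6KO. Bmi1, which encodes Pcgf4, was at 0.88 to 2.5 TPM in WT and at 14.3 to 16.3 TPM in the libraries labelled Pcgf-6KO. Pcgf3 was at 12.7 to 13.5 TPM in WT, 11.3 to 12.3 TPM in Pcgf-4KO and 10.2 to 15.1 TPM in Pcgf-6KO. Pcgf5 was at 9.01 to 10.1 TPM in WT and higher, at 13.2 to 15.7 TPM and 21 to 23.2 TPM, in the libraries labelled Pcgf-4KO and Pcgf-6KO. Pcgf1, at 9.79 to 11.6 TPM in WT, was at 0.28 to 2.58 TPM and 2.16 to 4.28 TPM there, and Pcgf2, at 63.5 to 72.8 TPM in WT, was at 15.4 to 17.9 TPM in Pcgf-6KO. These values cover the whole gene, the labels do not name the deleted exons, and the groups are named by their labels throughout. All 8 ES cell markers listed (Pou5f1, Sox2, Nanog, Zfp42, Sall4, Lin28a, Utf1 and Dppa5a) were at 1 TPM or more in every group. Their summed level was 3970 to 4040 TPM in WT, 3740 to 4010 TPM in Ring1a-KO, 6580 to 7220 TPM in Ring1b-KO, 2710 to 3020 TPM in Ring1a/b-dKO, 3610 to 3740 TPM in Pcgf-4KO and 1860 to 2310 TPM in Pcgf-6KO. The 8 trophoblast markers summed to 29.1 to 31.3 TPM in WT, 28.9 to 30.3 TPM in Ring1a-KO, 69.7 to 72 TPM in Ring1b-KO, 254 to 268 TPM in Ring1a/b-dKO, 298 to 308 TPM in Pcgf-4KO and 735 to 754 TPM in Pcgf-6KO, and the 8 fibroblast markers to between 9.09 and 24.6 TPM over all groups. The part of other cell types in the members' values was not tested.

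The start regions of 50 of the 86 members with a symbol were found in a RefSeq table of build GRCm38.p6. CG pairs, the sites of DNA methylation and the hallmark of CpG island promoters, were counted in the 250 bases before the start. The median was 8 pairs for the members, 17 for 6047 genes at 10 TPM or more in WT and 8 for all 20541 genes of the table. Windows with 5 or fewer CG pairs were found for 23 of 50 members (46%), against 8.1% of genes at 10 TPM or more in WT and 41.9% of all genes. In this count the members were nearer to all genes of the table than to genes at 10 TPM or more in WT, a set not matched to them in level. The RefSeq start of 7 members lies more than 1000 bases from the GENCODE start, at 204229 bases for Pde4d, 39187 for Mup6, 6628 for Enpp3, 2565 for Syt11, 2220 for Selenop, 1743 for Nphs1 and 1728 for Foxp1, and may not be the start used in these cells. With windows within 1000 bases of the GENCODE start alone, a limit chosen after the data were seen, 5 or fewer CG pairs were found for 18 of 43 members (41.9%), 6.8% of genes at 10 TPM or more in WT and 36.8% of all genes, and the medians were 11, 17 and 10 pairs. The counts are a description, with no test.

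**Figure D1:**
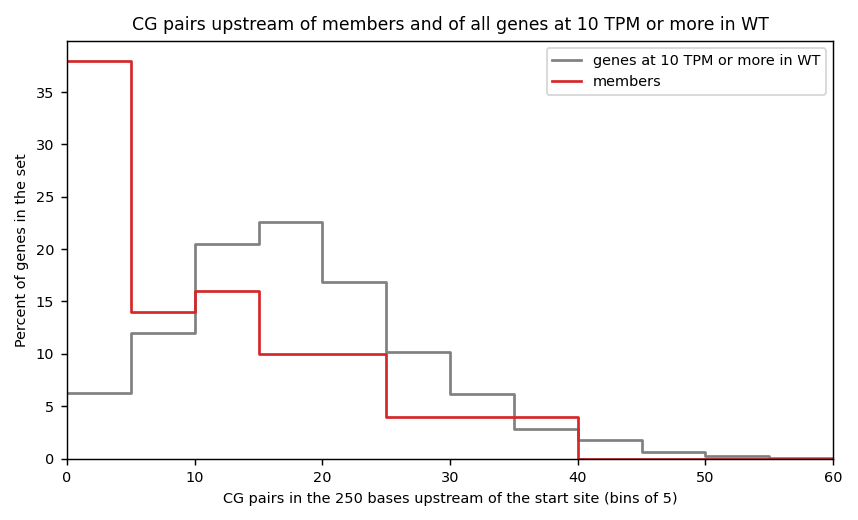
CG pairs in the 250 bases upstream of the start (x axis, number of pairs) against the percent of genes in each bin (y axis), for the members with a RefSeq start and for all genes at 10 TPM or more in WT. The member distribution lies to the left, with medians of 8 and 17 pairs.

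Upstream windows of 3 members show the range. Sinhcaf, which encodes a subunit of the Sin3 histone deacetylase complex, had 38 CG pairs in chr6:148946471-148946720 (minus strand). Tdgf1, which encodes the Nodal co-receptor Cripto, had 7 pairs in chr9:110946159-110946408 (minus strand), and the long non-coding RNA Platr10 had 0 in chr3:75655732-75655981 (minus strand). Sequences are written 5′ to 3′ and end at the base before the start, and capitals mark the octamer ATGCAAAT.
Sinhcaf: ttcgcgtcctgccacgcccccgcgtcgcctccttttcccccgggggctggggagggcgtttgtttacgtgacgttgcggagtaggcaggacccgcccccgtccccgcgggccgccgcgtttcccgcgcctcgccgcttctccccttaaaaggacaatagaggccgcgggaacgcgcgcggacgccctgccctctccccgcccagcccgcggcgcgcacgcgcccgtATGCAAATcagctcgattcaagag
Tdgf1: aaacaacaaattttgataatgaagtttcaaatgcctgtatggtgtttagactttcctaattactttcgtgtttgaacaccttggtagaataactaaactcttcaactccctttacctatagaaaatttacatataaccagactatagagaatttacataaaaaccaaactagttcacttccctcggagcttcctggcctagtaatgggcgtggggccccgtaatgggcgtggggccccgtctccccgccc
Platr10: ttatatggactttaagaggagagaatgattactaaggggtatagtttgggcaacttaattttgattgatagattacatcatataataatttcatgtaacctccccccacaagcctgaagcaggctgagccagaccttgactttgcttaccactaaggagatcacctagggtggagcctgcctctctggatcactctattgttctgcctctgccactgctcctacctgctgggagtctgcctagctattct

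The octamer ATGCAAAT is the element bound by POU factors such as Oct4, the product of Pou5f1. Searched on both strands, it occurred in the windows of 4 of 50 members (8%), against 1.32% of genes at 10 TPM or more in WT and 1.51% of all genes. These were Sinhcaf, Pim2, Pipox and Sned1, with 2 matches in Pim2. The matches outside Sinhcaf are shown with their flanks to a length of 30 bases, as the strand of the gene reads, with the octamer or its reverse complement in capitals. They lie at chrX:7878093-7878122 and chrX:7878172-7878201 for Pim2, chr11:77894049-77894078 for Pipox (minus strand) and chr1:93235745-93235774 for Sned1. The Pipox match is upstream of the RefSeq start but inside the gene as GENCODE places it, whose start lies 224 bases from the RefSeq start.
Pim2 distal: caccctcctacATTTGCATacaggcccttc
Pim2 proximal: ttgagggtggcATGCAAATaaggactggct
Pipox: gggaaggcgccATTTGCATgacaataattg
Sned1: aaaatgccactATTTGCATgaccccgcctc
Other motifs were searched on both strands too. The Sox core ACAATG was in 4 windows (8%, against 5.61% of genes at 10 TPM or more in WT and 10.2% of all genes), the Klf motif CCACACCC in 5 (10%, against 3.32% and 3.35%) and the E-box CACGTG in 4 (8%, against 9.11% and 6.4%). A match describes letters in these windows and not binding.

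**Figure D2:**
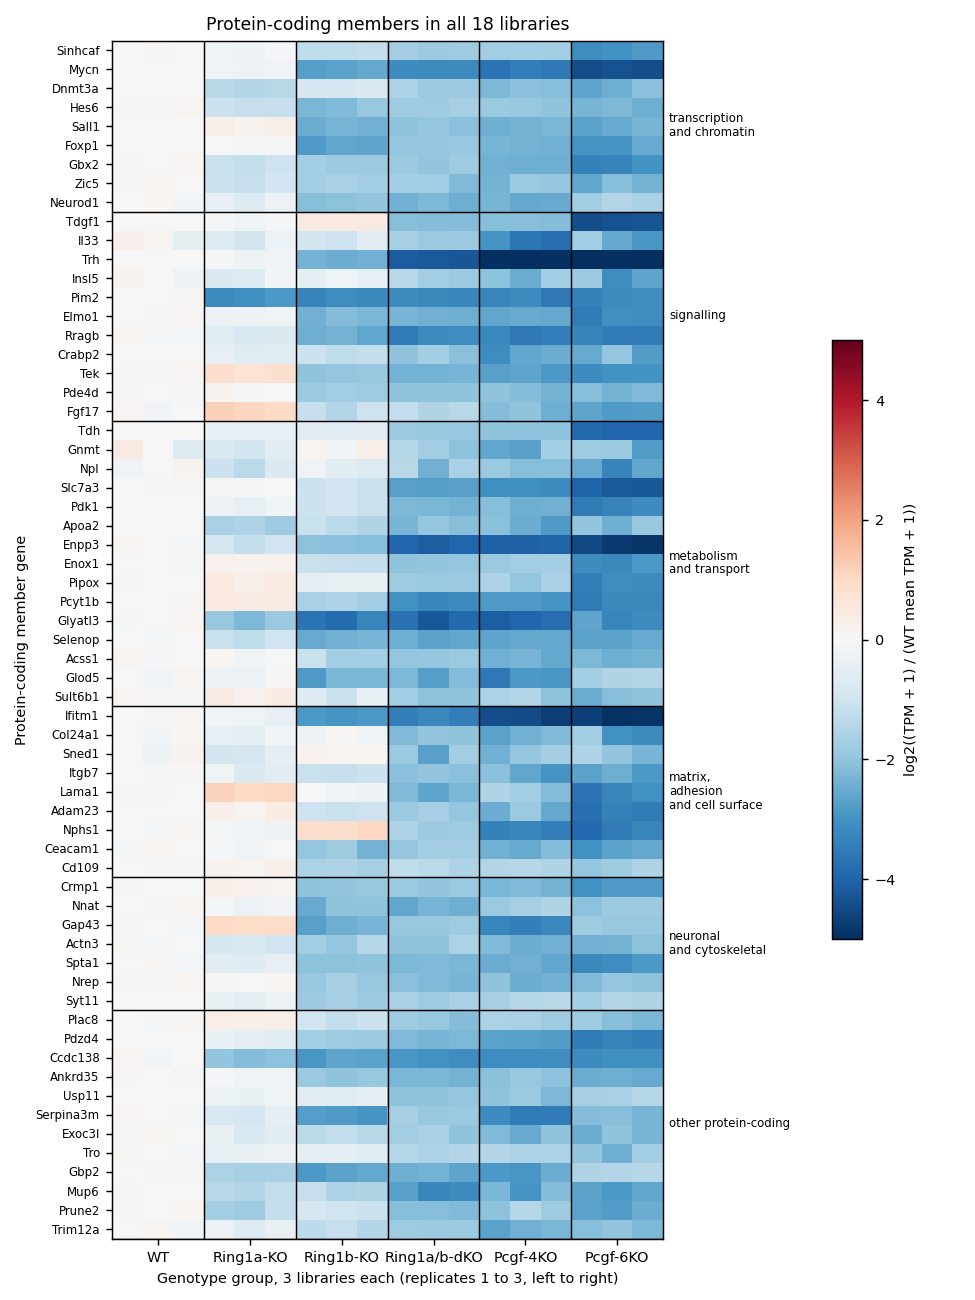
Heat map of the 63 protein-coding members (rows, grouped by role) in the 18 libraries (columns, grouped by genotype), coloured by log2 of (TPM + 1) over (WT mean TPM + 1). The median level is 80.1% of WT in the Ring1a-KO columns and 28.3% in the Ring1b-KO columns, and the strong mutants are low by the rule. The rule also used the WT mean.

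The levels in the strong mutants are values the rule used and are given as a description. The median level of the 63 protein-coding members was 21.9% of WT in Ring1a/b-dKO, 16.2% in Pcgf-4KO and 13% in Pcgf-6KO. Of all 103 members, 54.4% had their lowest mean in Pcgf-6KO, 21.4% in Pcgf-4KO and 24.3% in Ring1a/b-dKO. Of the 88 members without overlap, these were 55, 22 and 11 (62.5%, 25% and 12.5%). The shares were 44.3%, 23.4% and 32.3% of the 7950 genes at 10 TPM or more in WT. The rule and the choice of the 88 used these same libraries, so no trait of the members is read from the contrast. In the groups the rule did not use, the median was 80.1% of WT in Ring1a-KO and 28.3% in Ring1b-KO, whereas the median of those 7950 genes was 98.6% and 101%. These percentages rest on the WT mean, which the rule did use, so they are not free of the selection. A mean at or under 33.3% of WT was reached in Ring1b-KO by 35 of the 63 protein-coding members (55.6%), against 1.52% of the 7950 genes. In Ring1a-KO it was reached by 6 (9.52%), namely Pim2, Ccdc138, Apoa2, Glyatl3, Gbp2 and Prune2, against 0.717%.

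**Figure D3:**
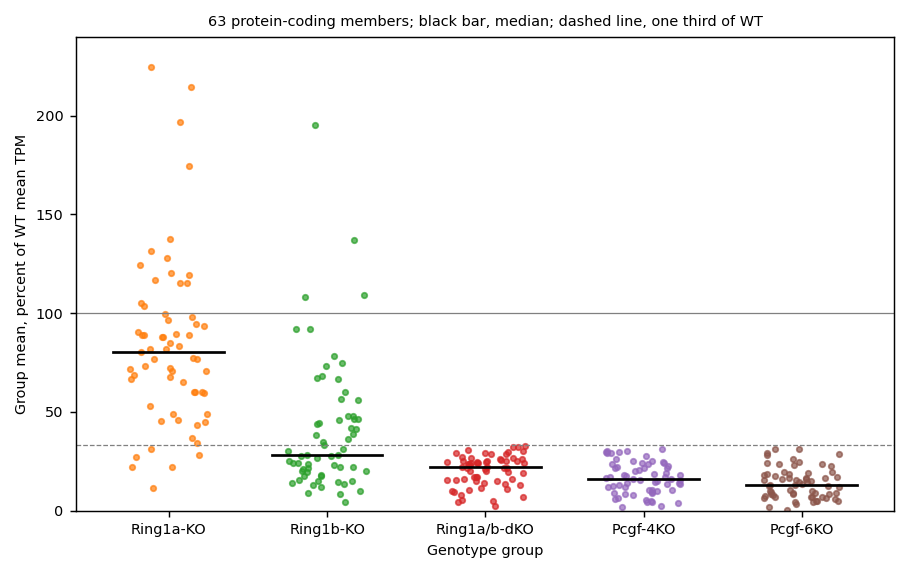
Group mean of each protein-coding member as a percent of its WT mean (y axis) in the 5 mutant groups (x axis). Points are genes, black bars are medians (80.1% in Ring1a-KO, 28.3% in Ring1b-KO) and the dashed line is the 33.3% of the rule, under which all points of the strong mutants lie by construction. Each percent rests on the WT mean, which the rule also used.

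The comparison of Ring1b-KO with Ring1a-KO sets the 2 single knockouts against each other, and the rule used neither group. The spread behind its SE and p-values was estimated from all 18 libraries, among them the 12 that the rule used. Neurite, signalling and transcription genes such as Gap43, Tek and Sall1 were lower without Ring1b than without Ring1a, and Tdgf1 and Nphs1 were higher. Of the 93 members that could be tested, 54 were lower (58.1%, against 17.1% of all 17842 genes tested), 9 were higher (9.68%, against 33.9%) and 30 were not called, with limma and an adjusted p under 0.05. Among the 63 protein-coding members, all of which were tested, 49 were lower, 6 were higher and 8 were not called. Their median log2 fold change was -1.08, against 0.12 for all genes tested. The summed trophoblast, ES cell and primitive endoderm markers other than Lama1 were all higher in Ring1b-KO than in Ring1a-KO, and their part in the members' values was not tested. Single ES cell markers differed: Nanog was higher, Sox2 was lower and Pou5f1 was not called (log2 fold changes 1.51, -0.28 and -0.05). A fall of 2-fold or more was called for 39 of the 93 (41.9%), against 2.57% of all genes. All genes tested needed only 1 TPM in 3 libraries, while the members were at 10 TPM or more in WT. This unlike level holds for every share of all genes tested. Here and below, brackets after a difference give the log2 fold change on the log2(TPM + 1) scale ± SE and limma's adjusted p. Quantile normalization moved the median of all genes in this comparison to -0.03 and the share of all calls that were higher from 66.5% to 48.1%, while the members stood at 56 lower and 6 higher.

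Each single knockout was also set against WT, and here the WT libraries had been used by the rule and are shared by both comparisons. In Ring1b-KO against WT, 63 of 93 members were lower (67.7%, against 17.1% of all genes) and 2 were higher (2.15%, against 34.7%), with a median log2 fold change of -1.14 against 0.13. The 2 were Tdgf1 and Nphs1. In Ring1a-KO against WT, 36 were lower (38.7%, against 10.8%) and 8 were higher (8.6%, against 12.3%), with a median of -0.43 against 0.01. A fall of 2-fold or more was called for 54 members in Ring1b-KO (58.1%, against 2.37%) and for 16 in Ring1a-KO (17.2%, against 0.846%). Over all genes, 9247 or 51.8% were called in Ring1b-KO against WT, 4123 or 23.1% in Ring1a-KO against WT and 9105 or 51% between the single knockouts. Without Ring1a-KO replicates 2 and 3, whose small RNA genes held 1.43% and 0.752% of TPM against 0.133% to 0.397% in the other libraries, 2149 genes and 24 members lower were called in Ring1a-KO against WT. With quantile normalization 46.4% of all calls in Ring1b-KO against WT were higher, compared with 67% without it.

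**Figure D4:**
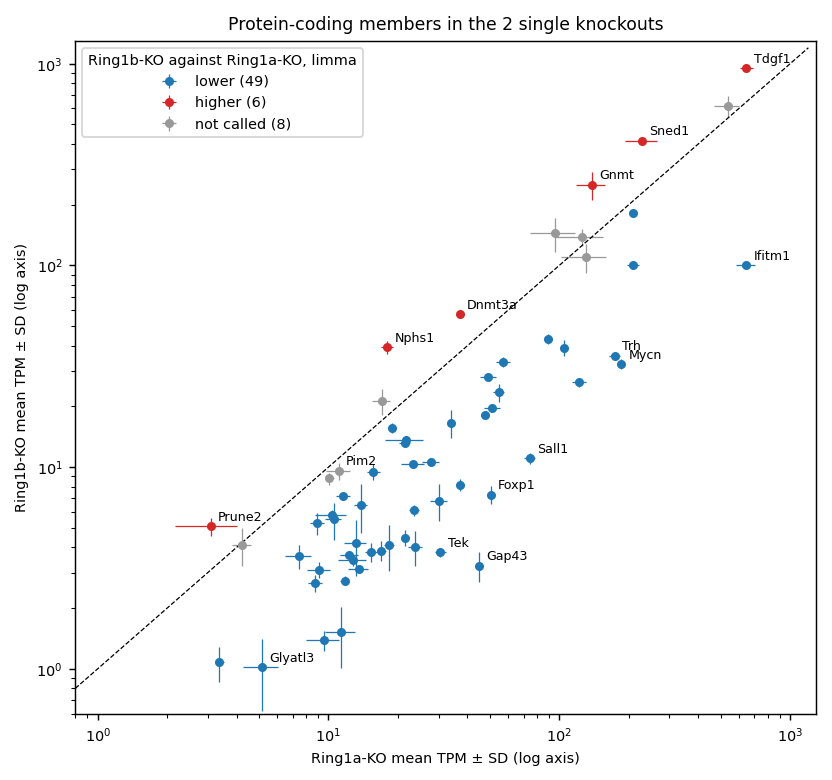
Mean TPM ± SD of 3 libraries in Ring1a-KO (x axis) and Ring1b-KO (y axis) for the 63 protein-coding members, both on log axes. Each point is a gene coloured by its limma call, and the dashed line marks equal levels: 49 genes called lower in Ring1b-KO lie below it and 6 called higher, among them Tdgf1 and Nphs1, lie above it.

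Transcription and chromatin genes numbered 9. Of these, 8 were lower in Ring1b-KO than in Ring1a-KO and 1, Dnmt3a, was higher. Against WT, all 9 were lower in Ring1b-KO, and in Ring1a-KO 7 were lower and 1 was higher. For this and each role below, 17.1% of all genes tested were lower and 33.9% higher between the single knockouts. Against WT these shares were 17.1% and 34.7% in Ring1b-KO, and 10.8% and 12.3% in Ring1a-KO. Of all 63 protein-coding members, 77.8% were lower and 9.52% higher between the single knockouts, and differences between roles were not tested. Sall1 (chr8:89027235-89044162), a zinc finger factor of the ES cell network, was at 62.2, 61.3 and 63.6 TPM in WT, 76.6, 69.8 and 77 TPM in Ring1a-KO and 10.5, 11.7 and 11.01 TPM in Ring1b-KO. It was at 14.7, 15.6 and 14.1 TPM in Ring1a/b-dKO, 10.6, 11.3 and 11.9 TPM in Pcgf-4KO and 8.81, 10.1 and 11.5 TPM in Pcgf-6KO. Every Ring1a-KO library was above every WT library, every library of the other mutants was below, and Sall1 fell between the single knockouts (-2.64 ± 0.08, adjusted p = 6.31e-13). The rise in Ring1a-KO against WT was small (0.25 ± 0.08, adjusted p = 0.0302) and lost its call without any 1 WT library (0.24 to 0.26) and without Ring1a-KO replicate 1 or 3 (0.23 each).

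Mycn (chr12:12936093-12941914), the Myc family factor that drives growth, was at 210.4, 209.7 and 213 TPM in WT, 192, 179 and 186 TPM in Ring1a-KO and 30.7, 32.1 and 34.6 TPM in Ring1b-KO. In the strong mutants it was at 22.7, 22.6 and 22.4 TPM in Ring1a/b-dKO, 15.2, 18.5 and 16.8 TPM in Pcgf-4KO and 8.84, 9.23 and 8.94 TPM in Pcgf-6KO. Its levels stepped down in the order WT, Ring1a-KO, Ring1b-KO, Ring1a/b-dKO, Pcgf-4KO and Pcgf-6KO with no overlap between neighbours, and it fell between the single knockouts (-2.48 ± 0.06, adjusted p = 8.84e-14). Foxp1 (chr6:98925338-99522721), a forkhead factor with an ES-cell-specific isoform, was at 51.7, 52.1 and 53.2 TPM in WT, 52.5, 49.4 and 49.7 TPM in Ring1a-KO and 6.43, 7.91 and 7.61 TPM in Ring1b-KO. It was lower without Ring1b than without Ring1a (-2.64 ± 0.10, adjusted p = 9.71e-12), and at 13.1, 12.9 and 13.4 TPM in Ring1a/b-dKO, 9.72, 9.36 and 9.17 TPM in Pcgf-4KO and 5.96, 5.82 and 8.40 TPM in Pcgf-6KO.

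Dnmt3a (chr12:3806007-3914443), a de novo DNA methyltransferase, went the other way between the single knockouts. It was at 100.1, 102 and 102 TPM in WT, 37.6, 35.6 and 37.9 TPM in Ring1a-KO and 55.98, 55.5 and 60.2 TPM in Ring1b-KO. The Ring1a-KO libraries were lower than the Ring1b-KO libraries without overlap (0.61 ± 0.11, adjusted p = 0.000188 for Ring1b-KO against Ring1a-KO), and both were below WT. In the strong mutants it was at 33.1, 28.03 and 27.9 TPM in Ring1a/b-dKO, 20.7, 23.2 and 22.3 TPM in Pcgf-4KO and 15.4, 17.7 and 23.3 TPM in Pcgf-6KO. Sinhcaf (chr6:148921035-148946467) was at 233, 247 and 235 TPM in WT, 208, 197 and 223 TPM in Ring1a-KO and 98.3, 98.2 and 103 TPM in Ring1b-KO. It fell between the single knockouts (-1.06 ± 0.06, adjusted p = 1.13e-09) and was at 69.8, 67.1 and 68.4 TPM in Ring1a/b-dKO, 71.1, 71.9 and 70.6 TPM in Pcgf-4KO and 26.7, 28.4 and 32.6 TPM in Pcgf-6KO. Of its transcript pieces 35.3% are shared with other genes, among them the pseudogene member Gm9027, which shares 91.6% with Sinhcaf. The calls of Sinhcaf and Mycn in Ring1a-KO against WT (-0.19 and -0.18) were lost without any 1 WT library, at -0.16 to -0.21 for Sinhcaf and -0.18 to -0.19 for Mycn, and without Ring1a-KO replicate 2, at -0.15 and -0.16. Sinhcaf's was also lost without Ring1a-KO replicate 1 (-0.19) and Mycn's without Ring1a-KO replicate 3 (-0.18).

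The homeobox gene Gbx2, the bHLH gene Hes6 and the zinc finger gene Zic5 were lower in both single knockouts. Zic5 was at 23.4, 27.03 and 25.7 TPM in WT, 11.4, 10.9 and 12.4 TPM in Ring1a-KO and 7.03, 7.57 and 6.96 TPM in Ring1b-KO, with Ring1b-KO below Ring1a-KO (-0.62 ± 0.15, adjusted p = 0.00274). Hes6 was at 72.5, 69.4 and 83.7 TPM in WT, 35, 33.4 and 33.5 TPM in Ring1a-KO and 14.8, 15.3 and 19.5 TPM in Ring1b-KO, again without overlap (-1.0 ± 0.10, adjusted p = 3.92e-07). Gbx2, at 47.5 ± 2.57 TPM in WT (mean ± SD, n = 3), was at 21.4 ± 1.14 TPM in Ring1a-KO and 13.2 ± 0.582 TPM in Ring1b-KO, and 42.7% of its transcript pieces are shared with D130058E05Rik. Neurod1, a proneural bHLH factor, was at 17.7 ± 1.39 TPM in WT and 3.48 ± 0.235 TPM in Ring1b-KO.

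**Figure D5:**
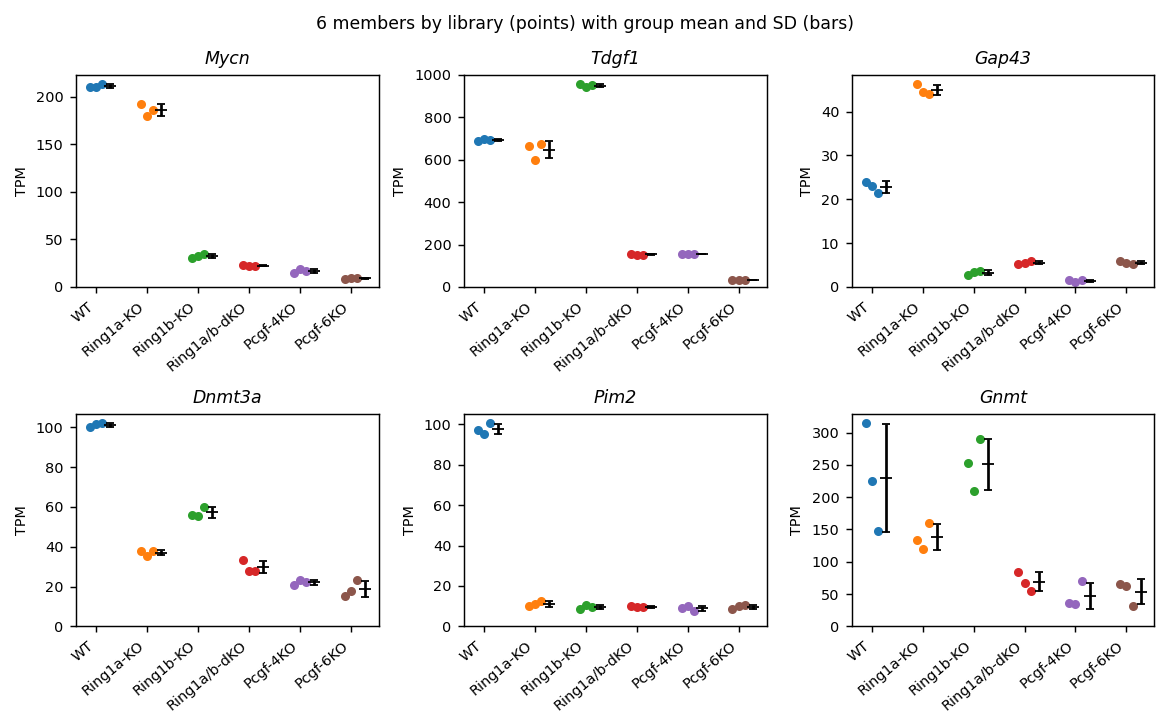
TPM in each library (points, y axis on a scale of its own per panel) by genotype group (x axis) for Mycn, Tdgf1, Gap43, Dnmt3a, Pim2 and Gnmt, with the group mean and SD as black bars. Tdgf1 is highest in Ring1b-KO, Gap43 is highest in Ring1a-KO, Pim2 is low in all mutants, and Gnmt is spread widely in WT.

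Of 11 signalling genes, 7 were lower in Ring1b-KO than in Ring1a-KO, 1 was higher and 3 were not called. Against WT, 9 were lower and 1 higher in Ring1b-KO, and 2 were lower and 2 higher in Ring1a-KO. Tdgf1 (chr9:110939603-110946158), the co-receptor through which Nodal signals, was at 689, 696 and 694 TPM in WT, 667, 601 and 674 TPM in Ring1a-KO and 955, 944 and 950.1 TPM in Ring1b-KO. In the strong mutants it was at 158, 153 and 152 TPM in Ring1a/b-dKO, 158, 156 and 154 TPM in Pcgf-4KO and 31.1, 32.6 and 33.9 TPM in Pcgf-6KO. Every Ring1b-KO library was above every WT library, and the gene rose in Ring1b-KO against Ring1a-KO (0.55 ± 0.04, adjusted p = 2.19e-08) and against WT (0.45 ± 0.04, adjusted p = 2e-07) while all strong-mutant libraries were low. Of its transcript pieces 12.6% are shared with other genes.

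The endothelial angiopoietin receptor gene Tek (chr4:94739289-94874976) was at 16.9, 16.9 and 18.7 TPM in WT, 31.9, 28.7 and 31.1 TPM in Ring1a-KO and 3.54, 3.87 and 3.93 TPM in Ring1b-KO. In the strong mutants Tek was at 2.57, 2.62 and 2.73 TPM in Ring1a/b-dKO, 1.83, 1.95 and 1.53 TPM in Pcgf-4KO and 1.11, 1.29 and 1.30 TPM in Pcgf-6KO. The ligand gene Fgf17 (chr14:70636203-70642268) was at 11.7, 9.60 and 10.5 TPM in WT, 25.4, 23.6 and 22.3 TPM in Ring1a-KO and 4.18, 3.17 and 4.73 TPM in Ring1b-KO. Both were highest in Ring1a-KO and lower in Ring1b-KO than in WT, with no overlap, and both fell between the single knockouts (-2.72 ± 0.08, adjusted p = 3.94e-13 for Tek and -2.31 ± 0.13, adjusted p = 1.12e-09 for Fgf17). Against WT in Ring1a-KO they rose (0.77 ± 0.08, adjusted p = 3.56e-06 and 1.10 ± 0.13, adjusted p = 2.09e-05).

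Pim2 (chrX:7878262-7883432), a survival kinase gene induced by LIF signalling, was low in every mutant. It was at 97.2, 95.4 and 101 TPM in WT, 9.84, 10.9 and 12.5 TPM in Ring1a-KO and 8.66, 10.5 and 9.57 TPM in Ring1b-KO. It was at 10.1, 9.64 and 9.32 TPM in Ring1a/b-dKO, 8.93, 10.2 and 7.37 TPM in Pcgf-4KO and 8.58, 9.89 and 10.6 TPM in Pcgf-6KO. The mutant groups overlapped in part and all 15 knockout libraries lay far below WT, with falls in Ring1a-KO (-3.04 ± 0.11, adjusted p = 6.85e-11) and in Ring1b-KO (-3.22 ± 0.11, adjusted p = 2.56e-12). Between the single knockouts it was not called (-0.19 ± 0.11, adjusted p = 0.163), although median ratio scaling and quantile normalization gave calls at -0.25 and -0.29.

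The hormone precursor gene Trh was at 196, 195 and 196 TPM in WT, 184, 165 and 174 TPM in Ring1a-KO and 37.02, 33.8 and 36.1 TPM in Ring1b-KO. In the strong mutants it was at 10.01, 9.66 and 9.22 TPM in Ring1a/b-dKO, 3.42, 3.21 and 4.63 TPM in Pcgf-4KO and 0.90, 1.09 and 0.84 TPM in Pcgf-6KO. All mutant groups but Ring1a-KO were far below WT, with Pcgf-6KO at 0.482% of the WT mean, and Trh fell between the single knockouts (-2.26 ± 0.09, adjusted p = 1.63e-11). The hormone gene Insl5 was at 201, 181 and 149 TPM in WT, 107, 109.5 and 159.8 TPM in Ring1a-KO and 128, 154 and 132 TPM in Ring1b-KO, with overlap between the single knockouts (0.16 ± 0.27, adjusted p = 0.652, not called). The cytokine gene Il33 was at 233, 213 and 142 TPM in WT, 126, 104 and 161 TPM in Ring1a-KO and 104, 94.9 and 131 TPM in Ring1b-KO, and its fall in Ring1b-KO against WT (-0.81 ± 0.28, adjusted p = 0.0246) was lost without WT replicate 1 (-0.67) or 2 (-0.74) and without Ring1b-KO replicate 1 (-0.78) or 2 (-0.71). The phosphodiesterase gene Pde4d, the Rac regulator gene Elmo1 and the amino acid sensing GTPase gene Rragb were at 23.9%, 17.4% and 14.9% of WT in Ring1b-KO, and at 104%, 83.3% and 60.2% in Ring1a-KO.

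Metabolic and transport genes numbered 15, of which 12 were lower in Ring1b-KO than in Ring1a-KO, 1 was higher and 2 were not called. Against WT, 13 were lower in Ring1b-KO, and 7 were lower and 2 higher in Ring1a-KO. Tdh (chr14:63492347-63509092), threonine dehydrogenase, on which mouse ES cells depend, was at 273, 267 and 273 TPM in WT, 215, 204 and 206 TPM in Ring1a-KO and 182, 180.3 and 181 TPM in Ring1b-KO. It was at 74.1, 71.6 and 71.2 TPM in Ring1a/b-dKO, 66.02, 63.8 and 65.2 TPM in Pcgf-4KO and 17.3, 16.4 and 16.4 TPM in Pcgf-6KO. Tdh fell little in the single knockouts, at 76.9% and 66.8% of WT, and was 6.17% of WT in Pcgf-6KO. The difference between the single knockouts was small and larger than the library spread (-0.20 ± 0.03, adjusted p = 8.72e-05). Of the Tdh transcript pieces 17.1% are shared with Gm13929. The cationic amino acid transporter gene Slc7a3 was at 89.9, 87.3 and 92.5 TPM in WT, 93.5, 86.4 and 89.1 TPM in Ring1a-KO and 42.3, 46.2 and 41.3 TPM in Ring1b-KO, so Ring1a-KO overlapped WT and Ring1b-KO did not (-1.04 ± 0.06, adjusted p = 1.59e-09). The pyruvate dehydrogenase kinase gene Pdk1 was at 81.7% of WT in Ring1a-KO and 47.6% in Ring1b-KO.

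Gnmt, glycine N-methyltransferase, and Npl, N-acetylneuraminate pyruvate lyase, varied between libraries of a group. Gnmt was at 315, 225 and 148 TPM in WT, 134, 120.4 and 159 TPM in Ring1a-KO and 253, 210.3 and 289.8 TPM in Ring1b-KO. The WT libraries overlapped both single knockouts, which did not overlap each other. The call in Ring1b-KO against Ring1a-KO (0.86 ± 0.32, adjusted p = 0.0369) was lost without Ring1b-KO replicate 1 (0.84) or 3 (0.75), without Ring1a-KO replicate 1 (0.84) or 2 (0.76) and with median ratio scaling (0.79) or quantile normalization (0.82). Npl was at 168, 202 and 220.4 TPM in WT, 92.4, 76.9 and 118 TPM in Ring1a-KO and 176, 137 and 121 TPM in Ring1b-KO, and it was not called between the single knockouts (0.59 ± 0.26, adjusted p = 0.07), except without Ring1a-KO replicate 3 (0.75), with a replicate block or with the 6 libraries alone (0.59 each). Glyatl3, an acyltransferase gene, was at 23.5 ± 1.93 TPM in WT, 5.17 ± 0.898 TPM in Ring1a-KO and 1.02 ± 0.396 TPM in Ring1b-KO (-1.62 ± 0.19, adjusted p = 3.8e-06 for the single knockouts). The peroxisomal oxidase gene Pipox and the phosphatidylcholine synthesis gene Pcyt1b were above WT in Ring1a-KO and below it in Ring1b-KO, with 38.5, 36.5 and 36.9 TPM and 8.17, 8.67 and 7.57 TPM against 26.8, 26.6 and 28 TPM in WT for Pcyt1b.

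Matrix, adhesion and surface genes included Ifitm1, the member with the highest WT mean. Of 9, 6 were lower in Ring1b-KO than in Ring1a-KO, 2 were higher (Sned1 and Nphs1) and 1 was not called. Against WT, 5 were lower and 1 higher in Ring1b-KO, and 2 were lower and 1 higher in Ring1a-KO. Ifitm1 (chr7:140967221-140969825), an interferon-inducible membrane protein gene, was at 747, 726 and 809 TPM in WT, 697, 663 and 577 TPM in Ring1a-KO and 102, 96.5 and 103 TPM in Ring1b-KO. It was at 70.9, 80.2 and 67.5 TPM in Ring1a/b-dKO, 34.2, 32.9 and 28.4 TPM in Pcgf-4KO and 29.3, 23.6 and 24.5 TPM in Pcgf-6KO. The Ring1a-KO libraries were somewhat below WT without a call (-0.24 ± 0.09, adjusted p = 0.0796), all other mutants were far lower, and Ifitm1 fell between the single knockouts (-2.67 ± 0.09, adjusted p = 4.6e-12). 

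Col24a1, a fibrillar collagen gene, and Sned1, a matrix glycoprotein gene, kept high levels in Ring1b-KO. Of the Sned1 transcript pieces 19.1% are shared with Mterf4. Such shares are given for some of the named genes only. Col24a1 was at 687, 611 and 711 TPM in WT, 505, 489.7 and 613 TPM in Ring1a-KO and 566, 698 and 585 TPM in Ring1b-KO, and neither single knockout was called against WT or each other. Sned1 was at 389, 325 and 436 TPM in WT, 204, 213 and 269.6 TPM in Ring1a-KO and 428, 410.2 and 409 TPM in Ring1b-KO. It was higher in Ring1b-KO than in Ring1a-KO (0.87 ± 0.25, adjusted p = 0.00795), and its fall in Ring1a-KO against WT (-0.74 ± 0.25, adjusted p = 0.0403) was lost without WT replicate 1 (-0.73) or 3 (-0.65), without Ring1a-KO replicate 1 (-0.67) or 2 (-0.70), and with quantile normalization (-0.72). Nphs1, the nephrin gene, was at 20.2, 19.2 and 21.1 TPM in WT, 19.02, 18.1 and 16.8 TPM in Ring1a-KO and 38.01, 37.4 and 42.6 TPM in Ring1b-KO. Its Ring1b-KO libraries were the highest of all groups (1.09 ± 0.12, adjusted p = 2.95e-06 against Ring1a-KO), and it was at 6.23, 5.01 and 5.20 TPM in Ring1a/b-dKO, 1.02, 1.19 and 0.99 TPM in Pcgf-4KO and 0.44, 0.86 and 1.22 TPM in Pcgf-6KO.

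Laminin alpha 1, the gene Lama1, is also on the list of primitive endoderm markers. It was at 24.6, 26.8 and 24.97 TPM in WT, 58.3, 52.3 and 53.5 TPM in Ring1a-KO and 25.9, 23.3 and 21.2 TPM in Ring1b-KO. The Ring1a-KO libraries were all above those of WT and Ring1b-KO, and Lama1 rose in Ring1a-KO against WT (1.07 ± 0.17, adjusted p = 0.00035). The summed 8 primitive endoderm markers were at 27.6 to 29.6 TPM in WT, 56.1 to 62.3 TPM in Ring1a-KO and 56.9 to 60.5 TPM in Ring1b-KO. Lama1 itself made up most of this sum in WT and Ring1a-KO: without it the other 7 markers summed to 2.8 to 3.17 TPM in WT, 3.56 to 4.04 TPM in Ring1a-KO and 33.6 to 36.7 TPM in Ring1b-KO, with 1, 1 and 6 of the 7 at 1 TPM or more. The protease inhibitor-like surface gene Cd109, just inside the threshold, was at 32.2% of WT in Ring1a/b-dKO and at 26.8% in Ring1b-KO (-1.77 ± 0.09, adjusted p = 5.86e-10 between the single knockouts).

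The 7 neuronal and cytoskeletal genes were all lower in Ring1b-KO than in Ring1a-KO and than in WT, while in Ring1a-KO 3 were lower than WT and 2 were higher. Gap43 (chr16:42248442-42340651), a growth cone protein gene, was at 24.03, 23.1 and 21.5 TPM in WT, 46.2, 44.6 and 44.1 TPM in Ring1a-KO and 2.64, 3.36 and 3.74 TPM in Ring1b-KO. It was at 5.35, 5.43 and 5.90 TPM in Ring1a/b-dKO, 1.52, 1.22 and 1.53 TPM in Pcgf-4KO and 5.91, 5.44 and 5.33 TPM in Pcgf-6KO. Ring1a-KO libraries were highest and Ring1b-KO libraries far lower, and among the 93 members tested this was the largest fall between the single knockouts (-3.44 ± 0.09, adjusted p = 2.17e-13). Crmp1, which acts in axon guidance, was at 108, 103 and 104 TPM in WT, 131, 121 and 115 TPM in Ring1a-KO and 25.1, 26.3 and 27.7 TPM in Ring1b-KO (-2.17 ± 0.06, adjusted p = 7.02e-13). The 6 neural markers listed summed to 138 to 147 TPM in WT, 176 to 204 TPM in Ring1a-KO and 42.7 to 44.8 TPM in Ring1b-KO, and their part in these results was not tested. The imprinted gene Nnat, Nrep and the vesicle protein gene Syt11 were at 20.1%, 23.9% and 23.3% of WT in Ring1b-KO.

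The remaining 12 protein-coding members, of which 9 were lower in Ring1b-KO than in Ring1a-KO, 1 was higher and 2 were not called, held genes of immunity, ubiquitin handling and little known function. All 12 were lower than WT in Ring1b-KO, and 9 in Ring1a-KO. Prune2 was the higher one, at 10.3, 10.7 and 11.8 TPM in WT, 2.64, 2.47 and 4.17 TPM in Ring1a-KO and 5.66, 4.93 and 4.67 TPM in Ring1b-KO (0.59 ± 0.16, adjusted p = 0.0061), a call that quantile normalization removed (0.36). Gbp2, a guanylate-binding protein gene induced by interferon, was at 12.5, 13.1 and 11.9 TPM in WT, 3.53, 3.23 and 3.34 TPM in Ring1a-KO and 0.85, 1.11 and 1.27 TPM in Ring1b-KO, with Ring1b-KO below Ring1a-KO (-1.08 ± 0.12, adjusted p = 1.6e-06). Ccdc138, a coiled-coil gene, was at 21.9% of WT in Ring1a-KO and 12.9% in Ring1b-KO. Plac8 was at 83.98, 81.6 and 87.99 TPM in WT, 107, 104 and 105 TPM in Ring1a-KO and 42.1, 35.4 and 39.9 TPM in Ring1b-KO.

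Of the non-coding members, Platr10 (chr3:75647446-75655731) was at 119.5, 115 and 114 TPM in WT, 85.01, 80.1 and 112 TPM in Ring1a-KO and 70.95, 71.9 and 75.6 TPM in Ring1b-KO, with Ring1b-KO below WT (-0.67 ± 0.09, adjusted p = 2.36e-05). The long non-coding RNA 2610037D02Rik was lower in Ring1b-KO than in Ring1a-KO (-2.23 ± 0.10, adjusted p = 1.25e-10), and Gm12682, Gm46332 and Gm47725 were not called in any of the 3 comparisons.

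Core pluripotency genes outside the members are given for reference. Pou5f1, which encodes Oct4, was at 1116, 1101 and 1119.7 TPM in WT, 1100.1, 1022 and 1029 TPM in Ring1a-KO and 1011, 989 and 1039.7 TPM in Ring1b-KO, and at 612, 583 and 581 TPM in Ring1a/b-dKO, 627, 616 and 620.2 TPM in Pcgf-4KO and 427, 422 and 386 TPM in Pcgf-6KO. Sox2, its partner factor, was at 253, 247 and 240.1 TPM in WT, 258, 233 and 284 TPM in Ring1a-KO and 206, 205 and 223 TPM in Ring1b-KO, and at 138, 135 and 136 TPM in Ring1a/b-dKO, 168, 176 and 173 TPM in Pcgf-4KO and 45.9, 45.97 and 48.4 TPM in Pcgf-6KO. The libraries of the strong mutants were below every WT library for both genes. Nanog, a homeobox factor of the naive state, was at 109.5, 110.3 and 104 TPM in WT, 140.1, 126 and 139 TPM in Ring1a-KO and 399, 379 and 382 TPM in Ring1b-KO. In the strong mutants Nanog was at 37.4, 34.1 and 37.2 TPM in Ring1a/b-dKO, 115, 118 and 119 TPM in Pcgf-4KO and 23.7, 24.2 and 25.5 TPM in Pcgf-6KO, so it was above every WT library in both single knockouts and in Pcgf-4KO and below every WT library in Ring1a/b-dKO and Pcgf-6KO. Of the 18 core pluripotency genes listed, with Sall1 and Tdgf1 as members, 9 were lower and 5 higher in Ring1b-KO than in Ring1a-KO (median log2 fold change -0.18). Of 19 naive genes, none a member, 6 were lower and 12 higher (median 0.80). Of 19 formative and primed genes tested, with the members Dnmt3a, Foxp1 and Zic5, 11 were lower and 7 higher (median -0.22). The 16 Nodal pathway genes tested gave 4 lower and 6 higher (median 0.04), the 16 Fgf and Erk feedback genes 6 and 4 (median -0.16), and the 12 LIF pathway genes 6 and 3 (median -0.20). The median of all genes tested was 0.12, and 17.1% of them were lower and 33.9% higher.

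The Ring1b-KO values against WT gave 11 lower and 6 higher of the core list, 5 and 11 of the naive list, 15 and 1 of the formative list, 5 and 10 of the Nodal list, 7 and 4 of the Fgf and Erk list, and 4 and 5 of the LIF list. The medians were -0.21, 0.61, -0.76, 0.29, -0.07 and 0.05, against 0.13 for all genes tested, of which 17.1% were lower and 34.7% higher. In Ring1a-KO against WT the counts were 2 and 7, 7 and 7, 12 and 1, 0 and 5, 4 and 4, and 1 and 3, in the same order, with medians of 0.07, 0.13, -0.39, 0.17, -0.06 and 0.14 against 0.01. Of all genes tested, 10.8% were lower and 12.3% higher there.

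The members were spread over 20 chromosomes. Of the 86 with a position, 8 were on the X chromosome (9.3%), namely Pim2, Slc7a3, Pdzd4, Pcyt1b, Rragb, Usp11, Tro and Glod5, against 2.97% of genes at 10 TPM or more in WT. Transcripts of the Y chromosome summed to 132 to 150 TPM in WT and 71 to 78 TPM in Ring1b-KO, 83.6 to 117 TPM in Pcgf-6KO, and between 9.01 and 16.2 TPM in the other mutants, and their part in the X-linked values was not tested. Pairs of members within 200000 bases were Pim2 and Glod5 (120767 bases apart), Gm10704 and Syt11 (167560), Snora61 and Snora73b (41952), and Crmp1 and Gm42935 (5496). The rule has no gap at its threshold. The 4 members just inside had a highest strong-mutant level of 31.2% (Gbp2), 32% (Insl5), 32.2% (Cd109) and 32.9% (Fgf17) of WT, and the 4 genes just outside of 33.5% (Armcx1 and Cdyl) and 33.7% (Gm14444 and Platr3).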

How the data were processed

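Total RNA of 18 mouse ES cell libraries, 3 in each of 6 genotype groups, was sequenced after preparation with a TruSeq kit, per the labels' protocols. The authors deposited TPM per gene, which hides read depth and allows no counting interval. GRCm38.p5 is the build, and RSEM, edgeR and TopHat2 2.1.1 are the tools, in the submitters' processing notes, without their roles. A value of 0 is described as listed at 0. The deposited group means were not used.

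The members and the gene lists were chosen with earlier results of these data known. Values were taken as log2(TPM + 1), and the test took the 17842 genes that reached 1 TPM in 3 or more libraries. The 10 members that failed this filter were small RNAs and pseudogenes. The others could pass through WT, where they are high by the rule. Limma 3.58.1 in R 4.3.3 was fitted to all 18 libraries with 1 mean per group (12 residual degrees of freedom, trend), two-sided, with Benjamini-Hochberg adjustment over all genes tested, and was checked on simulated data. The 3 comparisons were Ring1b-KO against Ring1a-KO and each against WT. Named genes were members on the 6 gene lists, the 12 with the highest WT mean, the 6 largest rises and falls without overlap in Ring1b-KO against Ring1a-KO, the 4 genes on either side of the threshold, and Pou5f1, Sox2 and Nanog. Other genes named were chosen after their values were seen. Alternatives were other pseudocounts, filters, scalings, thresholds, a replicate block and leaving out libraries. Positions are those of a GENCODE release for GRCm38 and start regions are from RefSeq.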

Additional observations from a re-analysis of the deposited data

Results flagged for a closer look

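The 7 members listed here were higher in Ring1a-KO than in WT and lower in Ring1b-KO than in WT, each called by limma, and were picked for that. The picking fixes the direction of Ring1b-KO against Ring1a-KO in the same libraries, so that comparison is given here as a description. Its log2 fold changes were -3.44 for Gap43, -2.72 for Tek, -2.64 for Sall1, -2.31 for Fgf17, -2.17 for Crmp1, -2.07 for Pcyt1b and -0.79 for Pipox. In Ring1a-KO against WT the adjusted p was 2.23e-06 for Gap43, 3.56e-06 for Tek, 2.09e-05 for Fgf17, 0.00175 for Pcyt1b, 0.0105 for Pipox, 0.0231 for Crmp1 and 0.0302 for Sall1. The rise of Crmp1 was lost without WT replicate 2 or 3 (0.21 each) and without Ring1a-KO replicate 1 (0.17), and that of Sall1 without any 1 WT library (0.24 to 0.26) and without Ring1a-KO replicate 1 or 3 (0.23 each). Both comparisons with WT share the WT libraries.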

How the results depend on the processing

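The rule gave 62 members with a WT minimum of 20 TPM, 241 with a limit of 50% of WT, 64 with a limit of 25%, and 165 after median ratio scaling, against 103. Leaving out 1 library at a time gave 103 to 110 members. In Ring1b-KO against Ring1a-KO the members called lower were 53 to 54 and those called higher 6 to 9 on leaving out 1 library, with 8233 to 8548 of all genes called. In Ring1a-KO against WT the ranges were 26 to 34 lower, 6 to 8 higher and 3223 to 3609 of all genes, and in Ring1b-KO against WT 62 to 63, 2 to 3 and 8254 to 8401. Without Ring1a-KO replicates 2 and 3, an alternative chosen after seeing the data in which the remaining library is assumed to vary like the other groups, 2149 of all genes were called in Ring1a-KO against WT instead of 4123, with 24 members lower and 7 higher. Deviations of same-numbered libraries from their group means correlated at -0.109 to 0.0714 over 45 pairs (none over 0.1). No strong shared deviation by number was seen, which cannot show whether same-numbered libraries were prepared together. With a replicate block the calls were 54 lower and 10 higher of the members in Ring1b-KO against Ring1a-KO (9021 of all genes), 34 and 9 in Ring1a-KO against WT (3994) and 64 and 2 in Ring1b-KO against WT (9110). No value of a named gene changed sign while called. Over 75 genes, 15 of 1275 values lost their call in Ring1b-KO against Ring1a-KO, 85 of 1275 in Ring1a-KO against WT and 14 of 1200 in Ring1b-KO against WT. These totals include genes without a call in the main fit, which could not lose one. Calls were gained by 7, 31 and 4 values, in the same order. TPM hides read depth, so the precision of low values is unknown, and the cause of these changes was not tested.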

Other observations

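The 16 assembled identifiers carry no position or symbol, and 15 of them had every WT library above every strong-mutant library, a gap that the rule favours. Among the short members, 6 were listed at 0 in all 15 knockout libraries. They had a value in a single WT library, such as Gm24262 with 0, 69.6 and 0 TPM and Mir1949 with 58.5, 0 and 0 TPM. Gm24888 had 55.1, 0 and 0 TPM in WT and 0, 81.1 and 64.2 TPM in Ring1b-KO.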
